A study of Mus musculus with 6 samples.

Results

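The coronins are a family of actin-binding proteins, and 7 mouse coronin genes, Coro1a, Coro1b, Coro1c, Coro2a, Coro2b, Coro6 and Coro7, were followed in double-positive (DP) thymocytes with and without Hdac3. They were chosen by gene symbol, and the brightest probe set over the 6 arrays was to stand for each gene. All 7 were measured among 19938 genes, each by 1 probe set, and no filter on low signal was applied. The family was proposed with its KO and WT values already known, so its differences between genotypes are given as a description. The members were part of the limma fit over all probe sets, but no test of a member is read from it.

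The cells were DP thymocytes of C57BL/6 mice aged 3 weeks, untreated. The WT group had 3 arrays and the Hdac3 KO group had 3 arrays. The series names the knockout after Lck and Hdac3, a form of name used for deletion by a Cre transgene under the T lineage promoter of Lck; the alleles themselves, and whether the WT mice carried a transgene or a modified allele, are not given here. Total RNA of 2 mice per genotype was pooled, and how those mice relate to the 3 replicates is not stated, so the spread between arrays may be partly technical.

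Coronins carry WD40 repeats folded into a beta-propeller that binds filamentous actin. The short, type I members restrain the Arp2/3 complex, which nucleates branched filaments, and help cofilin to take old filaments apart. In T cells the best known member is Coro1a, whose loss in mice leaves few peripheral T cells. Type II members have been studied mostly outside lymphocytes, with 1 link to this knockout: Coro2a is known as a component of the NCoR corepressor complex, in which HDAC3 is the deacetylase. The type III member Coro7 carries tandem propellers and works at the trans-Golgi.

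Coro2b and Coro7 were the members that were higher on all KO arrays, and the 250 bases before the transcription start of each are shown with those of Coro1a, the coronin best known in T cells, whose groups overlapped. They are RefSeq sequences of mouse build GRCm38.p6, printed 5′ to 3′ on the gene's strand. All 3 genes lie on the minus strand, Coro7 with its window at chr16:4679721-4679970, Coro2b at chr9:62537045-62537294 and Coro1a, for the first of its RefSeq starts, at chr7:126704817-126705066. Capitals mark every match, on either strand, to CCGGAA (an ETS core), AGGTCA (a nuclear receptor half-site), CAGCTG or CACCTG (E-boxes) or TGTGGT (a RUNX core).
Coro7: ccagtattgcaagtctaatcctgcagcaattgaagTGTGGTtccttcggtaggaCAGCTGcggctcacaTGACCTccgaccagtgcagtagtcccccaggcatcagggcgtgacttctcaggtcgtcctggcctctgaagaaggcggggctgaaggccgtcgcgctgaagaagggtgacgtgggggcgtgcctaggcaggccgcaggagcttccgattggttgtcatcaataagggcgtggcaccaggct
Coro2b: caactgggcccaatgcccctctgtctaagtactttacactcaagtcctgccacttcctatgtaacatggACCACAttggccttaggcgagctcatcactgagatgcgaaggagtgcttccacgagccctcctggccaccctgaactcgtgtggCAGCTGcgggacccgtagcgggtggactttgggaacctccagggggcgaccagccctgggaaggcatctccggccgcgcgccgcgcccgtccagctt
Coro1a: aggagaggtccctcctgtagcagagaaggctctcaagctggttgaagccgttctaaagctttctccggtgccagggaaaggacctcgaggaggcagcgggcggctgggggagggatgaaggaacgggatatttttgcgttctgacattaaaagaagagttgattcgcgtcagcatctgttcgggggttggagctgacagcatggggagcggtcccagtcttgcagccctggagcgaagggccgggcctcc

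The windows of Coro7 and Coro2b each held 1 CAGCTG and 1 TGTGGT, the latter read on the opposite strand in Coro2b. Coro7 also held 1 AGGTCA, on the opposite strand, and the Coro1a window shown held none of the 5 motifs. Other windows of the family held matches too: that of the second RefSeq start of Coro1a held 1 CCGGAA, and the Coro1c window, of a gene lower in KO, held 1 TGTGGT and 3 CCGGAA. The CCGGAA matches at 119 and 117 bases before the Coro1c start overlapped, on opposite strands. The first window of Coro6 held 1 CACCTG. Within the 3 printed windows no matches overlapped. Of 32841 RefSeq promoter windows of this length, 13.0% held CAGCTG, 14% TGTGGT, 14% AGGTCA, 12% CCGGAA and 17.2% CACCTG. The GC box GGGCGG was also searched but is not marked, and 32.7% of all windows held it. The printed Coro1a window held a match, as did windows of Coro1c, Coro2a and Coro6, while those of Coro7 and Coro2b did not. GC content was 60.0% for Coro7, 62.0% for Coro2b and 58.8% for Coro1a, against a median of 52.4% over all windows. The motifs were chosen after the members' values were seen, and a match is a run of letters, not a measured site. Windows were found for 6 of the 7 genes, the exception being Coro1b.

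The labels were checked against the targeted gene and the markers of the cell type. Hdac3 was at log2 values of 9.40, 9.42 and 9.44 in WT and 8.28, 8.32 and 8.32 in KO, a difference of -1.12 (SE 0.08, limma adjusted p = 3.5e-04); where its probes lie relative to the deleted part is unknown. Of 12 DP marker genes 11 were measured, and their median log2 value lay between 11.11 and 11.39 on every array, with 1 called higher and 1 lower. Signal was more compressed in KO, with interquartile ranges of 3.06 to 3.25 against 3.29 to 3.49 in WT. The median difference (KO minus WT) was 0.02 over all genes. It was -0.10 with dim probe sets, those under the median signal, left out. A small difference is therefore to be read beside the brightness of its probe set. On KO array 2 all 12 neutrophil markers had their highest value of the 6 arrays. Their summed log2 value was 73.0 there, against 53.4 to 55.1 in WT and 55.2 on both of the other KO arrays, and 0 of 12 were called by limma in either direction; the differences of the coronins are therefore also given without KO array 2. These are bulk samples, in which fewer cells of a type and less RNA per cell cannot be told apart.

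Expression of the family split into a pair of genes that were higher in KO, 1 that was slightly lower and 4 whose groups overlapped. The 3 KO arrays lay above the 3 WT arrays for Coro2b and Coro7, by 1.85-fold and 1.74-fold. Coro1c was lower on each KO array, by 1.15-fold. Coro1a, Coro1b, Coro2a and Coro6 overlapped between genotypes and differed by at most 0.10 in size on the log2 scale. Groups without overlap made up 3 of 7 coronins (42.9%), where the share over all 19938 genes was 31.0% (14.1% higher and 16.9% lower in KO). Coro2b and Coro7 were also among the genes with an adjusted p under 0.05 in the limma fit over all probe sets, as were 1.84% of all genes with a higher and 4.25% with a lower value in KO (6.09% in either direction). Since the contrast was used in proposing the family, these counts are no test of it and nothing is read from them.

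**Figure D1:**
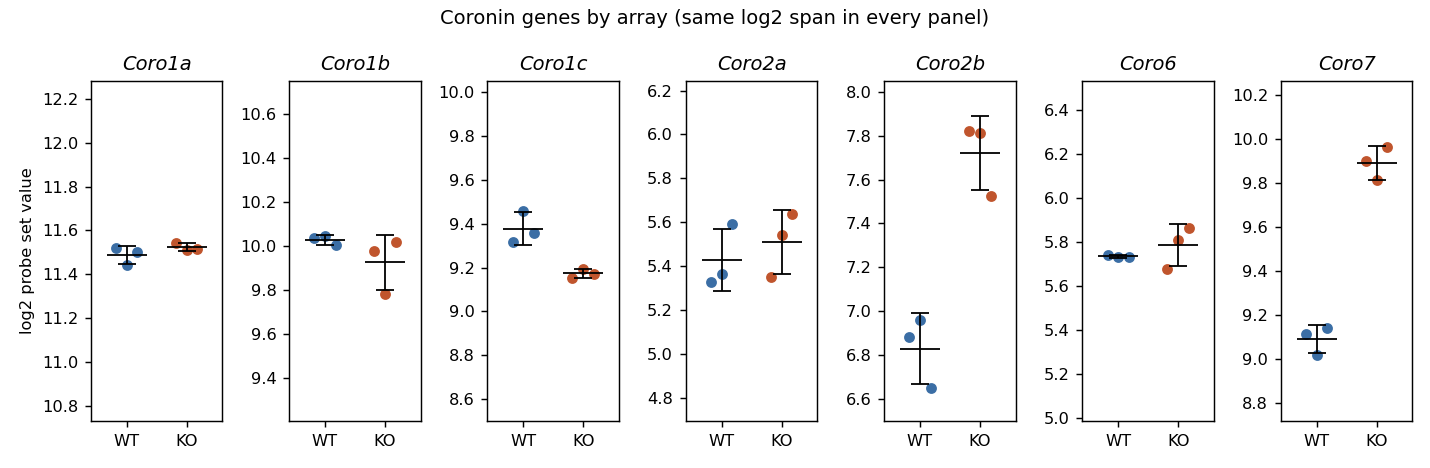
Log2 probe set value of each coronin gene on the 3 WT (blue) and 3 KO (orange) arrays, arrays 1 to 3 from left to right within a group; the long bar is the mean and the whiskers the SD over 3 arrays, and each panel spans the same log2 range around its own gene. Coro2b and Coro7 separate widely, with KO arrays at 7.53 to 7.82 and 9.81 to 9.97, while Coro1a stays between 11.44 and 11.54 on all 6 arrays.

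Coro1a, the coronin of blood cells that is needed for T cell survival and migration, had log2 values of 11.52, 11.44 and 11.50 in the order of the 3 WT arrays, and of 11.54, 11.51 and 11.52 in that of the KO arrays. The groups overlapped, and all 6 arrays lay within a narrow span. Its means were 11.49 ± 0.04 (SD, n = 3) for WT and 11.52 ± 0.02 (SD, n = 3) for KO, which differed by 0.03 (SE 0.09). Its signal was above that of 98.6% of the probe sets tested. The difference was 0.04 without KO array 2 and -0.07 when arrays were centred on their medians, a scaling that moved the median difference of all genes from 0.02 to -0.08.

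Coro1b, which removes Arp2/3 branches at the leading edge of moving cells, had log2 values of 10.04, 10.05 and 10.00 in WT and 9.98, 9.78 and 10.02 in KO. The low value belonged to KO array 2, and the other 5 arrays lay together. The means were 10.03 ± 0.02 (SD, n = 3) and 9.93 ± 0.13 (SD, n = 3), a difference of -0.10 (SE 0.10). Without KO array 2 the difference was -0.03. With all 6 arrays it was -0.09 after quantile normalization, -0.03 after cyclic loess normalization and -0.20 after median centring, so its size moved with the scaling as well as with that array.

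Coro1c, a widely expressed relative of Coro1b at the cell cortex, had log2 values of 9.32, 9.46 and 9.36 in WT and 9.15, 9.19 and 9.17 in KO. Each KO array was below each WT array, with a gap of 0.12 between the nearest values. The means were 9.38 ± 0.07 (SD, n = 3) and 9.17 ± 0.02 (SD, n = 3), a difference of -0.20 (SE 0.09). The difference depended on scaling, at -0.13 after quantile normalization, -0.11 after cyclic loess normalization and -0.31 after median centring. Leaving out 1 array gave -0.24 to -0.16, and -0.22 for KO array 2.

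Coro6, the type I coronin known from muscle and nerve, had log2 values of 5.74, 5.73 and 5.73 in WT and 5.68, 5.81 and 5.87 in KO. WT values were nearly identical, and KO values fell on both sides of them. The difference was 0.05 (SE 0.09), and it turned negative with quantile normalization (-0.03), cyclic loess (-0.03) and median centring (-0.05). It was 0.04 without KO array 2, and ran from 0.01 without KO array 3 to 0.10 without KO array 1. The signal of Coro6 was just under the median of tested probe sets, where the level of background is unknown.

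Coro2a, the type II coronin of the NCoR complex, did not separate the genotypes. Its log2 values were 5.33, 5.36 and 5.59 in WT and 5.35, 5.54 and 5.64 in KO, so that the groups interleaved. The difference was 0.08 (SE 0.11), and it came to -0.03 with quantile normalization, -0.03 with cyclic loess and -0.02 with median centring. It was 0.07 without KO array 2, and in the 6 such fits lay between 0.02 (KO array 3 removed) and 0.16 (WT array 3 removed). Its probe set was also under the median signal of those tested. Of the other measured genes of the complex listed with it, Tbl1x and Tbl1xr1, which encode WD40 subunits of the complex, rose by 0.75 (SE 0.10) and 0.66 (SE 0.09) with limma adjusted p of 0.0033 and 0.0039, and were called in all 6 fits with 1 array left out; Hdac3 fell and Gps2 did not pass.

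Coro2b, the type II coronin best known from the nervous system, had log2 values of 6.88, 6.96 and 6.65 in WT and 7.82, 7.81 and 7.53 in KO, in array order. Array 3 was the lowest of each group, and the gap between the highest WT and the lowest KO array was 0.57. The means were 6.83 ± 0.16 (SD, n = 3) and 7.72 ± 0.17 (SD, n = 3), a difference of 0.89 (SE 0.12). Its signal was above that of 68.7% of tested probe sets. With 1 array left out the difference was 0.80 to 0.99, and it was 0.84 without KO array 2, the array with high neutrophil markers; it was 1.0 after quantile normalization and 0.79 after median centring.

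Coro7, the Golgi coronin, had log2 values of 9.11, 9.02 and 9.14 in WT and 9.90, 9.81 and 9.97 in KO. Array 2 was the lowest of each group, and the gap between the groups was 0.67, the widest among the 7 genes. The means were 9.09 ± 0.06 (SD, n = 3) and 9.89 ± 0.08 (SD, n = 3), a difference of 0.80 (SE 0.09). The difference was 0.77 to 0.84 with 1 array left out, 0.84 without KO array 2, 0.87 after quantile normalization and 0.70 after median centring. Its probe set was brighter than 91.9% of those tested.

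**Figure D2:**
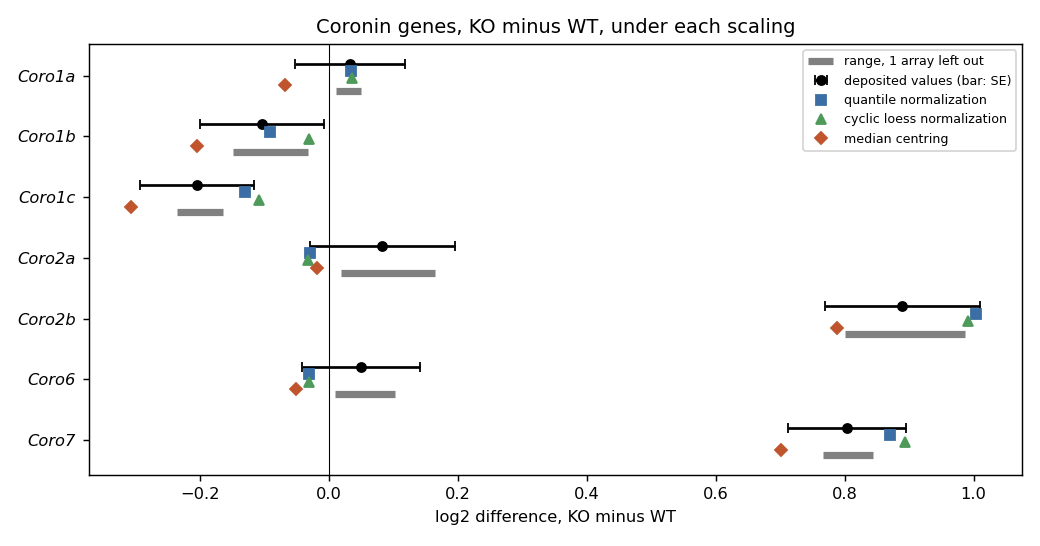
Log2 difference (KO minus WT) of each coronin gene from the deposited values with its SE (black), after 3 rescalings of the arrays (coloured symbols), and as the range over 6 fits with 1 array left out (grey bar). Coro2b and Coro7 stay between 0.70 and 1.0 in all of these, while Coro2a and Coro6 change sign with each of the 3 rescalings and Coro1a with median centring.

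Genes beside the coronins on the chromosome were compared to see whether the differences extended past the gene, using the nearest protein-coding RefSeq genes and those overlapping a coronin gene. This comparison was added after the members' values were seen. Of 14 measured neighbours of the 7 genes, 1 was called (limma, adjusted p under 0.05), Selplg beside Coro1c, against 6.09% of all genes. Selplg encodes PSGL-1, the ligand of P-selectin on leukocytes. Its log2 values were 10.24, 10.13 and 10.27 in WT and 10.75, 10.87 and 10.66 in KO, a rise of 0.54 (SE 0.10, limma adjusted p = 0.014), the opposite direction to Coro1c. The call was lost without WT array 2 (0.50, limma adjusted p = 0.059) or KO array 2 (0.49, limma adjusted p = 0.059). On its other side Ssh1, a phosphatase that activates cofilin, differed by -0.09 (SE 0.22), with a range of 5.29 to 6.33 within the KO arrays alone.

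Coro7 overlaps Vasn, the gene of the cell surface protein vasorin. Vasn had log2 values of 6.17, 6.18 and 6.26 in WT and 6.49, 6.38 and 6.59 in KO, a difference of 0.28 (SE 0.09) that did not pass (limma adjusted p = 0.11). It was higher on each KO array. Whether the 2 probe sets share transcribed sequence was not tested. The genes on either side, Glis2, a zinc finger factor, and Dnaja3, a mitochondrial cochaperone, differed by -0.22 and -0.24 (SE 0.09 each, limma adjusted p = 0.18 and 0.15). Beside Coro2b, Anp32a, a nuclear phosphoprotein, differed by -0.24 (SE 0.10) and Itga11, a collagen receptor chain, by 0.13 (SE 0.09), with limma adjusted p of 0.18 and 0.35. Groups did not overlap for Glis2, Dnaja3 and Anp32a, which were lower in KO, nor for Itga11, which was higher. Over all 19938 genes, 31.0% had groups without overlap.

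**Figure D3:**
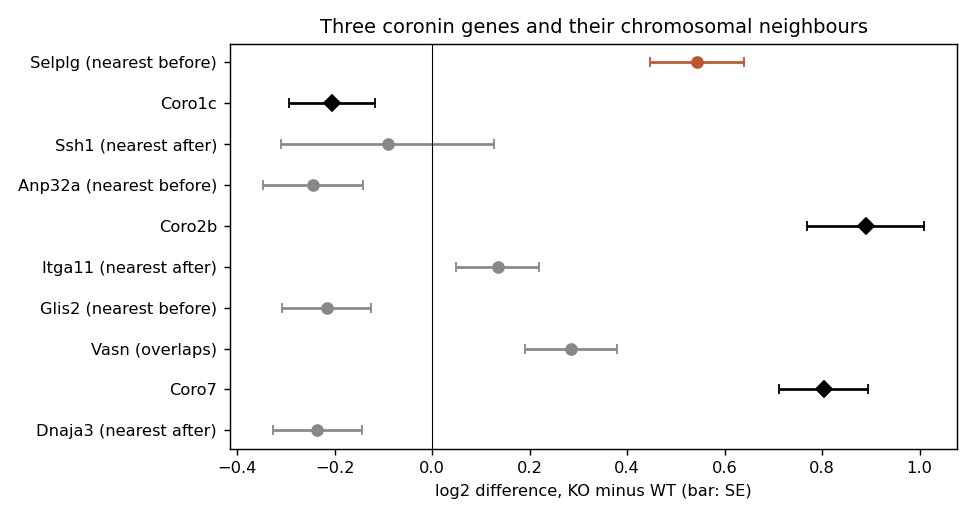
Log2 difference (KO minus WT) with its SE for Coro1c, Coro2b and Coro7 (black diamonds) and their nearest or overlapping protein-coding genes (circles; orange, limma adjusted p under 0.05; grey, not called). The neighbours of Coro2b and Coro7 lie between -0.24 and 0.28, below the 0.89 and 0.80 of the coronins themselves.

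Other regulators of actin were taken from 9 lists by role. Of 131 genes listed 121 were measured, and 5 rose, 7 fell and 109 did not pass (limma, adjusted p under 0.05), 9.92% called against 6.09% of all genes. Their median difference was 0.00, against 0.02 over all genes. The split moved with the scaling, at 7 higher and 7 lower after quantile normalization, 9 higher and 6 lower after cyclic loess normalization and 2 higher and 17 lower after median centring. The count fell to 3 if WT array 1 was left out, 4 for WT array 2, 5 for KO array 3 and 6 for either of the other KO arrays, and was 16 for WT array 3. Of the 12 called genes, Abi2, Gsn and Vav3 were called in every one of those 6 fits. The lists were brighter than the array as a whole, with 98 of the 121 genes at or above the median signal of tested probe sets. In a fit of those brighter probe sets alone, 22 of the 98 were called, against 1812 of 11705 probe sets. The median difference over the genes of that fit was -0.10. The share and the median over all genes are therefore not like comparisons.

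The Arp2/3 complex, the machine that type I coronins restrain, showed small differences. Of 7 measured subunits 0 were called (limma), and 0 had an unadjusted p under 0.05; differences ran from -0.12 for Arpc5, the subunit with the smallest p (limma adjusted p = 0.50), to 0.02. Of 4 inhibitors and debranching factors 0 were called (limma), and 1 had an unadjusted p under 0.05, Pick1, at -0.27 (limma adjusted p = 0.16).

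Of 22 activators of Arp2/3, Abi2 and Nckap1, both subunits of the WAVE complex, fell by 0.80 (SE 0.12, limma adjusted p = 0.0071) and 0.71 (SE 0.13, limma adjusted p = 0.015). Abi2 had log2 values of 7.02, 7.25 and 7.07 in WT and 6.25, 6.54 and 6.14 in KO, with no overlap. Hcls1, the cortactin relative of blood cells, rose by 0.37 (SE 0.09, limma adjusted p = 0.041), and 19 did not pass. The call of Nckap1 was lost without WT array 1 (-0.66), WT array 2 (-0.69) or KO array 3 (-0.72). Hcls1 was called in none of the 6 fits with 1 array left out (0.35 to 0.41, limma adjusted p at most 0.13), nor after median centring (0.27).

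In the cofilin module, which works with coronins in filament turnover, 2 of 16 genes fell and 14 did not pass. Dstn, the cofilin relative destrin, had log2 values of 6.91, 6.58 and 6.16 in WT and 5.84, 5.03 and 5.43 in KO. The groups did not overlap, but each was widely spread, and the fall was 1.12 (SE 0.22, limma adjusted p = 0.022). Cap2, a cyclase-associated protein that recycles actin monomers, fell by 0.63 (SE 0.13, limma adjusted p = 0.027). The call of Dstn held only with WT array 3 or KO array 1 removed (-1.32 to -0.91 in the 6 fits with a limma adjusted p of at most 0.082), and that of Cap2 only with array 3 of either group removed (range -0.74 to -0.54, with adjusted p from limma of at most 0.10).

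Among 19 monomer-binding and capping genes Gsn, the severing and capping protein gelsolin, rose by 0.90 (SE 0.09, limma adjusted p = 0.0013) and 18 did not pass. Gsn had log2 values of 8.91, 8.73 and 8.75 in WT and 9.72, 9.70 and 9.68 in KO, with no overlap. Of 12 formins, which build unbranched filaments, Fmnl2 fell by 1.24 (SE 0.21, limma adjusted p = 0.012) and Daam1 by 0.50 (SE 0.11, limma adjusted p = 0.033). Fmnl2 lost its call without WT array 1 (-1.12, limma adjusted p = 0.053), and Daam1 kept its call only without WT array 3 (-0.58 to -0.43 over the 6 fits, limma adjusted p at most 0.11). Of 5 actin genes 0 were called (limma), and 2 had an unadjusted p under 0.05; Acta2, the smooth muscle actin, differed most clearly at 0.44 (limma adjusted p = 0.094), and passed without WT array 3 (0.58) or with array weights (0.47).

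Vav3, an exchange factor downstream of antigen receptors, rose by 0.90 (SE 0.11, limma adjusted p = 0.0027), and Dock2, the Rac exchange factor of lymphocytes, rose by 0.41 (SE 0.10, limma adjusted p = 0.0499). Vav3 stood at 6.30, 5.98 and 6.02 in WT and 7.04, 7.06 and 6.90 in KO. Of 17 bundlers and membrane linkers Msn, the linker moesin, rose by 0.39 (SE 0.09, limma adjusted p = 0.041) and Iqgap1, a scaffold of Rac and Cdc42, fell by 0.36 (SE 0.09, limma adjusted p = 0.044). Dock2 and Msn were called in none of the 6 fits with 1 array left out (0.36 to 0.48 and 0.34 to 0.43, limma adjusted p at most 0.16 and 0.13), and Iqgap1 in a single one, with WT array 3 removed (range -0.38 to -0.33, with adjusted p from limma of at most 0.13). Dock2 and Msn were not called after median centring (0.31 and 0.29), Msn not after quantile normalization (0.37) and Iqgap1 not after cyclic loess normalization (-0.28), nor were Dock2 and Iqgap1 when all 28853 probe sets were tested.

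**Figure D4:**
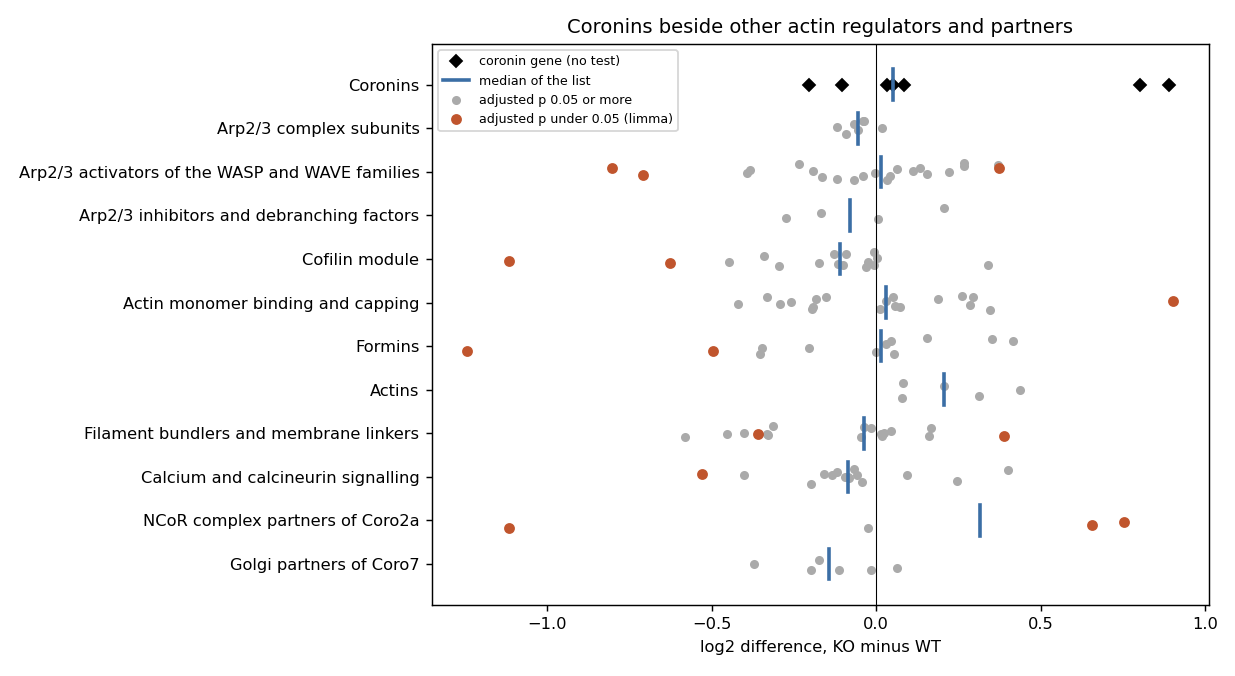
Log2 difference (KO minus WT) of the 7 coronins (black diamonds, no test read) and of the genes of 11 lists, 1 point per measured gene. Orange points passed an adjusted p of 0.05 (limma), grey points did not, and the blue bar is the median of the list. The 7 Arp2/3 subunits sit between -0.12 and 0.02, while single genes of other lists reach -1.24 (Fmnl2) and 0.90 (Gsn).

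Partners of Coro1a and Coro7 outside the filament were measured as well. Calcium and calcineurin signalling, to which Coro1a has been linked in T cells, had 1 of 15 genes called: Ppp3cc, a catalytic subunit of calcineurin, fell by 0.53 (SE 0.13, limma adjusted p = 0.048), and that call was lost without WT array 1 or 2 or KO array 2 or 3 (range -0.64 to -0.39, with adjusted p from limma of at most 0.15), after quantile normalization (limma adjusted p = 0.082), after cyclic loess normalization (limma adjusted p = 0.066) and when all probe sets were tested (limma adjusted p = 0.059). Of 6 Golgi partners of Coro7, the genes of its ubiquitin ligase and of the AP-1 coat, 0 were called (limma) and 1 had an unadjusted p under 0.05, Ap1s1, at -0.37 (limma adjusted p = 0.060), which was called without WT array 3 (-0.44), after median centring (-0.47), with array weights (-0.39), with an intensity trend and with dim probe sets left out.

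The genes whose log2 values followed Coro2b most closely over the 6 arrays, among 9873 genes above the median signal, were Usp15, a deubiquitinase (Pearson r = 0.996), Znrd1, a subunit of RNA polymerase I (r = 0.991), and Eno3, the muscle enolase (r = 0.990). For Coro1c they were Mpp7, a scaffold of cell junctions (r = 0.995), Armc10 (r = 0.993) and Tcp1, a subunit of the chaperonin that folds actin (r = 0.993). With 6 arrays in 2 groups such values are common, and 246 and 466 genes exceeded 0.9 for Coro2b and Coro1c. The likeness is one of shape and not of size: Usp15 differed by 0.26 and Eno3 by 0.41, against 0.89 for Coro2b, and Mpp7 by -0.71, against -0.20 for Coro1c.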

How the data were processed

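The authors deposited log2 values per probe set for 6 arrays, made with an Affymetrix whole-transcript array with biotin-labelled sense target, per the labels' protocols. Their background correction, normalization and probe summary are not given here, and no detection calls were used; the number of arrays limits the precision. Probe sets were named through the platform annotation, checked by Entrez identifier against RefSeq genes of GRCm38.p6. The 23410 probe sets with a gene were fitted with limma 3.58.1 in R 4.3.3 (lmFit and eBayes, 2 group means), two-sided, with Benjamini-Hochberg adjustment over all of them and a threshold of 0.05; the brightest probe set stood for a gene. The fit was tested on simulated data. An exact test of 3 against 3 arrays could not pass the threshold and was not run.

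The coronin genes and the 12 pathway lists were chosen with earlier results of these data known. Named were Hdac3, all coronins, up to 3 called genes per list with the largest change or the 1 with the smallest p, and the 3 genes most like the coronins with the largest rise and fall; neighbours and motifs were added later. Alternatives were 3 rescalings, a filter on dim probe sets, tests of the whole table, array weights, a prior with intensity trend and robust fit, a replicate block, omission of single arrays, and averaging of probe sets per gene. Single items of these lists are not reported here.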

Additional observations from a re-analysis of the deposited data

How the results depend on the processing

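Coro2b and Coro7 were the 2 coronins past the threshold in each of the 15 alternatives; the family was proposed with these values known, so this is a description and no sign of stability. The number of called probe sets, 1355 of 23410, was 2060 after median centring and 2285 with array weights, and 474 to 1946 with 1 array left out. It was 1899 with an intensity trend and robust prior, and 1812 of 11705 with dim probe sets left out. The number of called actin regulators, 12, was 19 after median centring, 22 with dim probe sets left out, 23 with an intensity trend and robust prior, 24 with array weights, and 3 to 16 with 1 array left out. For same-numbered arrays the labels give only the number, and whether they shared a preparation was not tested. Their deviations correlated at -0.07 to 0.25, and 2 of 6 arrays correlated best with their own number. With the replicate number as a block, 1162 probe sets, 2 coronins and 9 actin regulators were called, 7 of these 9 among the 12; Hcls1, Daam1, Dock2, Msn and Iqgap1 were not called there, and no other call named in the report was lost. Among neighbours that were not called, Ssh1 was at 0.21 without KO array 1 (lowest -0.32, without KO array 2) and Itga11 at -0.0045 after cyclic loess normalization, against -0.09 and 0.13. Coro2a and Coro6 lay under the filter on dim probe sets and had no value there. No detection level was used, so whether the signal of these dim genes stood above background is unknown. Their differences also changed sign with each of the 3 rescalings.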
